A study of Mus musculus with 26 samples.

Results

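The 8 mouse B-lineage libraries of a study of the transcriptional repressor BLIMP1 were set against the study's 18 other libraries, to describe the genes that every stage of the B lineage shared and that no other cell type in the series reached. A gene was a member when its lowest value in the 8 B-lineage libraries lay above its highest value in the other 18, or its highest value lay below their lowest. Of 25146 genes, 509 (2.02%) were higher in every B-lineage library and 797 (3.17%) were lower in every one. The 26 libraries formed 13 sorted groups with 2 replicates each. The B-lineage groups were B220-positive spleen cells from mice aged 8 to 10 weeks (B cell), and 3 sorts of purified B cells kept for 3 days with LPS at 10 ng/mL and IL-4 at 2 ng/mL: GFP-negative CD138-negative cells (Blast), GFP-positive CD138-negative cells (prePB) and GFP-positive CD138-positive cells (PB). The other groups were day 2 germ cell-like cells made in culture (d2 PGCLC), intestinal epithelium sorted as EPCAM-positive at E16.5 (also GFP-positive), P3 and P14, and retinal photoreceptor precursors sorted as GFP-positive at P0, as GFP-positive CD73-negative at P4 and as CD73-positive at P4, P6 and P10. Spleen, intestine and retina came from C57BL/6 mice with EGFP fused to BLIMP1 on both alleles, so the B-lineage cells had no wild-type counterpart here. The d2 PGCLC came from a mixed C57BL/6 and 129 line with Blimp1-mVenus, stella-ECFP and Rosa26-rtTA, sorted for the Blimp1 reporter.

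A B cell senses antigen through a membrane immunoglobulin that signals through CD79A and CD79B, the kinases LYN, SYK and BTK, the adaptor BLNK and phospholipase C gamma. It shows peptides to helper T cells on MHC class II molecules, whose genes are switched on by the coactivator CIITA. Plasmablasts are the dividing, antibody-secreting cells that activated B cells become, and BLIMP1 is known there for silencing much of the B cell program. Lymphocytes travel as single cells and hold no lasting junctions with their neighbours, whereas epithelial and retinal cells are polarised and joined by adherens and tight junctions.

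Values are RPM, reads scaled by the authors to a common library total, from 3' RNA-seq. The most common value above 0 in a library was taken as 1 read, and smaller fractions also occurred. By this reading a library held 1.72 to 6.04 M reads (M, 1e6), and 1 read was worth 0.166 to 0.583 RPM. Values near 1 RPM then rest on a few reads. The labels do not tie the replicates to different animals or cultures, and spreads and p-values cover these libraries only, which may be technical repeats. The label was checked against 12 B-lineage markers: 10 were higher in every B-lineage library, among them Cd79a, Ptprc, Ms4a1 and Pax5, and Cd72 and Ebf1 overlapped the other libraries. The summed level of 12 T cell markers was 333 and 343 RPM in B cell, 74.2 and 147 in Blast, 25.6 and 32.1 in prePB and 14.7 and 17.6 in PB, against 2.47 to 25.9 RPM elsewhere. The sum of 8 NK cell markers was 406 to 435 RPM in B cell and 29.3 to 78.4 RPM in the cultured groups, against 0.859 to 11.1 RPM elsewhere. The sum of 15 myeloid markers was 403 to 598 RPM in B cell and 18.3 to 54.0 RPM in the cultured groups, against 5.83 to 334 RPM elsewhere. Of these 35 markers, Cd8b1, Cd2 and Ccl5 were higher in every B-lineage library. Of the 15 myeloid markers, only C1qa and Cx3cr1, markers of macrophages, stayed under 1 RPM in all 8, and the rest did not. Cd3e and Klrb1c were at 0 in all 18 other libraries. Of 10 intestinal and 10 photoreceptor markers, 1 each (Krt18 and Prom1) was lower in every B-lineage library, and none of 8 germ cell, 6 erythroid and 5 platelet markers was separated. The part of other cells in the B-lineage values was not tested. In such bulk samples, fewer cells of a type and less RNA per cell cannot be told apart.

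The 509 higher genes took 12.3 and 12.4% of all RPM in B cell and 8.26 to 8.73% in the cultured groups, against 0.374 to 1.04% in the other libraries. The 797 lower genes took 0.764 to 1.09% of RPM in the B lineage, against 4.28 to 6.96% elsewhere. These shares follow from the rule and describe the size of the gap. The margin of a gene is the difference on the log2(RPM + 1) scale between the facing ends of its ranges, and it was at least 1 for 294 higher and 247 lower genes, and at least 3 for 106 higher and 32 lower genes. The higher genes included 121 whose lowest B-lineage value was under 5 RPM, and the lower genes 285 whose lowest value elsewhere was under 5 RPM. Among genes that averaged at least 50 RPM in the B lineage, Arhgap4 lay just inside with 8.90 to 340.0 RPM in the B lineage against 0 to 8.85 RPM elsewhere. Bcl2l11, a trigger of cell death, lay just outside with 32.9 to 128 RPM in the B lineage against 5.75 to 33.4 RPM elsewhere.

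The counts of higher and of lower genes both depended on scaling, though nearly all of the 509 higher genes stayed separated. The rows used held 65.1% of the RPM in PB replicate 2 and 97.8% in P10 replicate 2, since rows with values moved against the header, many of them of immunoglobulin genes, were set aside. Under median-of-ratios scaling, 705 genes were higher, with 508 of the 509 among them, and 537 were lower, with 532 of the 797 among them. Under quantile normalization the counts were 821 and 361, and 508 of the 509 higher genes were again among them. All 25 higher genes and all 15 lower genes with the widest margins were separated under both scalings. Picked for wide margins, they were the least likely to change, so this is no check of the sets. Without the 2 B cell libraries, 1288 genes were lower, and leaving libraries out can only keep or raise this count.

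**Figure D1:**
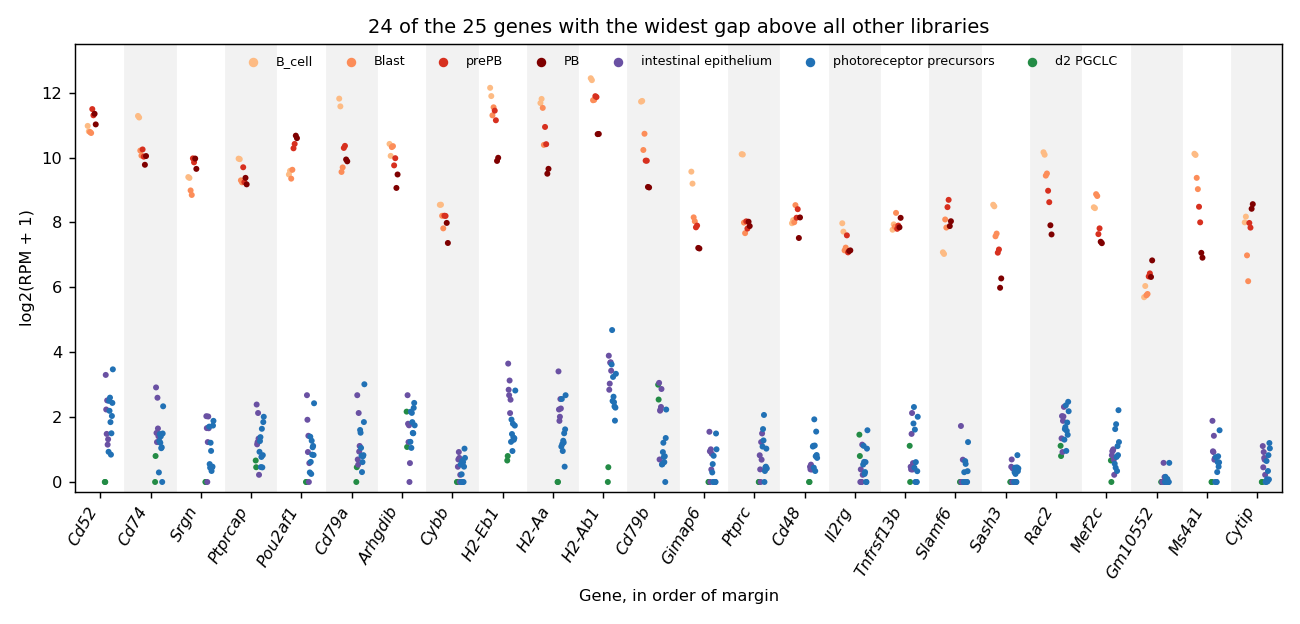
Level of 24 of the 25 higher genes with the widest margin, as log2(RPM + 1), one point per library; for each gene the 8 B-lineage libraries stand left and the 18 others right. Every B-lineage point lies above every other point, and the d2 PGCLC points are mostly at or near 0.

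Most genes of the antigen receptor and its signalling chain were above all other libraries at all 4 stages. Of 28 listed genes, 20 were higher in every B-lineage library, none was lower in every one, and the median log2 difference between the B-lineage mean and the mean of the 9 other groups was 4.83, against -0.74 over all 14131 genes tested. Cd79a, which encodes the signalling chain Ig-alpha (Entrez ID 12518; chromosome 7, 24897497 to 24901858 of GRCm38.p6), had 3604 and 3053 RPM in the B cell libraries, 752 and 828 in Blast, 1256 and 1313 in prePB and 982 and 943 in PB, against 0 to 7.07 RPM with a median of 0.845 in the 18 other libraries. It was highest in B cell and lowest in Blast, and its lowest B-lineage library stood far above P10 replicate 2, the highest other one. Its partner Cd79b had 3379.8 and 3431 RPM in the B cell libraries, 1202 and 1701 in Blast, 957 and 956 in prePB and 545 and 539 in PB, against 0 to 7.31 RPM with a median of 1.44 in the 18 other libraries. Unlike Cd79a, Cd79b reached 6.99 and 4.82 RPM in d2 PGCLC, where Cd79a was at 0 and 0.371 RPM. For Cd79b both PB libraries were the lowest of the 8 and both B cell libraries the highest.

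Genes with inhibitory and with activating roles were among the 20, while Cd72, an inhibitory receptor, overlapped. Fcgr2b, the inhibitory receptor for antibody, had 47.5 to 183 RPM in the B lineage (median 99.4), against 0 to 2.06 RPM elsewhere (median 0.0649). Inpp5d, the phosphatase SHIP1, had 42.0 to 174 RPM in the B lineage (median 85.7), against 0 to 3.49 RPM elsewhere (median 0.965). The kinase gene Blk had 639 and 646 RPM in B cell, 39.9 and 44.8 in Blast, 60.7 and 78.8 in prePB and 24.7 and 23.4 in PB, and no other library exceeded 1.92 RPM. Both B cell libraries were far above the 6 cultured ones, and these in turn above every other library. Syk, Btk, Blnk, Plcg2, Vav1 and Prkcb were also higher in every B-lineage library. The 8 genes that overlapped included Lyn (19.3 to 252 RPM in the B lineage against 0 to 37.2 RPM elsewhere), Cd81 (89.1 to 167 RPM in the B lineage against 51.3 to 199 RPM elsewhere), a broadly expressed tetraspanin, and Pik3cd (47.7 to 180.4 RPM in the B lineage against 2.24 to 124 RPM elsewhere).

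Of 22 listed transcription factors, 13 were higher in every B-lineage library and none was lower, with a median log2 difference of 4.52. Pou2af1, the octamer coactivator OBF1 (Entrez ID 18985; chromosome 9, 51213690 to 51240079), had 712 and 771 RPM in the B cell libraries, 651 and 787 in Blast, 1246 and 1369 in prePB and 1633 and 1548 in PB, against 0 to 5.39 RPM with a median of 0.845 in the 18 other libraries. PB was highest and prePB next, whereas B cell and Blast overlapped and were lowest. Irf4, needed for plasma cell formation, had 99.9 and 95.6 RPM in the B cell libraries, 59.9 and 49.1 in Blast, 245 and 290.5 in prePB and 335 and 289 in PB, against 0 to 1.35 RPM with a median of 0.412 in the 18 other libraries. Ikzf1 and Ikzf3, zinc finger factors of lymphocytes, had 89.9 to 328 RPM in the B lineage against 0 to 2.69 RPM elsewhere and 76.7 to 231 RPM in the B lineage against 0 to 2.69 RPM elsewhere. Mef2c, which acts downstream of the antigen receptor, had 163 to 467 RPM in the B lineage (median 285), against 0 to 3.64 RPM elsewhere (median 0.772). Pax5, Sfpi1 (PU.1), Pou2f2, Foxo1, Runx1, Runx3, Ets1 and Ciita completed the set. Spib, an ETS factor, overlapped through PB, with 654 and 626 RPM in B cell, 169.6 and 186 in Blast, 20.8 and 15.3 in prePB and 2.55 and 3.28 in PB, against up to 7.28 RPM in P14 intestine replicate 2. Irf8 had 26.1 to 165 RPM in the B lineage against 0 to 30.8 RPM elsewhere, and Tcf3, which encodes E2A, 59.0 to 153 RPM in the B lineage against 29.9 to 164 RPM elsewhere.

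All 11 genes listed for MHC class II presentation were higher in every B-lineage library, with a median log2 difference of 7.17. H2-Aa, an alpha chain of the class II molecule (Entrez ID 14960; chromosome 17, 34282744 to 34287823), had 3279 and 3580.5 RPM in the B cell libraries, 2957 and 1341 in Blast, 1967 and 1361 in prePB and 724 and 803 in PB, against 0 to 9.62 RPM with a median of 1.95 in the 18 other libraries. PB was lowest, the Blast replicates differed from each other, and every B-lineage library stood far above the highest other one. H2-Ab1, its beta chain, had 1688 to 5572 RPM in the B lineage (median 3617), against 0 to 24.7 RPM elsewhere (median 6.67), with the highest other value in P0 retina replicate 2. H2-Ob, an inhibitor of peptide loading, had 856 and 829 RPM in the B cell libraries, 180.2 and 200.2 in Blast, 149.9 and 160.4 in prePB and 89.6 and 82.0 in PB, against 0 to 1.92 RPM with a median of 0.347 in the 18 other libraries. B cell stood above the cultured groups, and the groups did not overlap the 18 others. Cd74, the invariant chain, had 876 to 2489.9 RPM in the B lineage (median 1127), against 0 to 6.54 RPM elsewhere (median 1.52). H2-Eb2 belonged to the genes seen only here, with 18.004 to 86.6 RPM in the B lineage against 0 to 0.371 RPM elsewhere.

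Nearly all listed genes of the leukocyte surface and most of those of the leukocyte cytoskeleton were higher in every B-lineage library. The counts were 23 of 25 surface genes (median log2 difference 6.23) and 18 of 21 cytoskeletal genes (median 5.27). Cd52, a short glycosylphosphatidylinositol-anchored surface glycoprotein (Entrez ID 23833; chromosome 4, 134093538 to 134095073), had the widest margin of the 509 genes, 7.28 on the log2(RPM + 1) scale. It had 2012 and 1790.5 RPM in the B cell libraries, 1768 and 1729 in Blast, 2882 and 2523 in prePB and 2607 and 2077 in PB, against 0 to 10.1 RPM with a median of 2.84 in the 18 other libraries. The prePB and PB libraries all lay above those of B cell and Blast, and P10 replicate 2 held the highest other value. Ptprc, the phosphatase CD45 that carries the B220 epitope (Entrez ID 19264; chromosome 1, 138062859 to 138175756), had 1099 and 1092 RPM in the B cell libraries, 254 and 203 in Blast, 261 and 223 in prePB and 259 and 236 in PB, against 0 to 3.19 RPM with a median of 0.499 in the 18 other libraries. The B cell libraries, sorted on this epitope, were highest. Cd53, a tetraspanin of leukocytes, had 339 to 1121 RPM in the B lineage (median 513), against 0 to 11.2 RPM elsewhere (median 2.01). Itga4 and Itgb7, the subunits of a homing integrin, were the 2 surface genes that overlapped, with 20.8 to 243 RPM in the B lineage against 0 to 60.8 RPM elsewhere for Itga4 and 1.20 to 108 RPM in the B lineage against 0 to 2.69 RPM elsewhere for Itgb7.

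**Figure D2:**
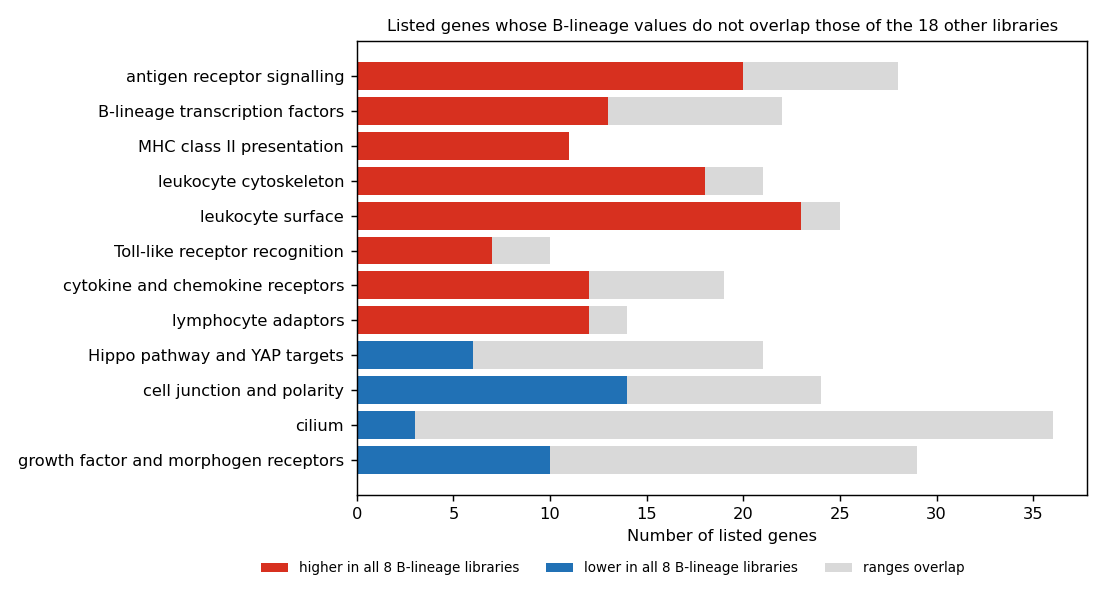
Number of listed genes (horizontal axis) that were higher in all 8 B-lineage libraries, lower in all 8, or overlapped the 18 others, for 12 lists. The 8 leukocyte lists hold only higher and overlapping genes, and the 4 lists below them only lower and overlapping genes, in the deposited scaling; under both other scalings 1 cilium gene was higher.

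Some blood-restricted genes have a widely expressed relative, and 21 such pairs of actin regulators, signalling enzymes, transcription factors and a lysosomal protein, chosen after values had been seen, were set side by side. The blood-restricted gene was higher in every B-lineage library in 19 pairs, and Lcp1 and Pik3cd overlapped. The widely expressed relative was lower in every B-lineage library in 5 pairs, overlapped in 16 and was never higher throughout. Nckap1l, the haematopoietic subunit of the WAVE complex, which starts branched actin networks (Entrez ID 105855; chromosome 15, 103453783 to 103502860), had 309 and 295 RPM in the B cell libraries, 208 and 204 in Blast, 153 and 131 in prePB and 124 and 95.4 in PB, against 0 to 3.19 RPM with a median of 0.976 in the 18 other libraries. Nckap1, which holds the same place in other cells (Entrez ID 50884; chromosome 2, 80500512 to 80581182), had 0.606 and 1.20 RPM in the B cell libraries, 1.52 and 1.73 in Blast, 3.66 and 2.70 in prePB and 4.25 and 2.58 in PB, against 124 to 193 RPM with a median of 156 in the 18 other libraries. Every B-lineage library was above all others for Nckap1l and below all others for Nckap1, which had the widest margin of the 797 lower genes, 4.57. Hcls1, the blood cortactin (Entrez ID 15163; chromosome 16, 36934983 to 36963214), had 21.0 to 75.6 RPM in the B lineage (median 43.2), against 0 to 5.72 RPM elsewhere (median 0.638), and Cttn, cortactin itself (Entrez ID 13043; chromosome 7, 144435724 to 144471560), had 0 to 4.45 RPM in the B lineage (median 1.83), against 87.1 to 199.6 RPM elsewhere (median 129.9). Was had 10.5 to 46.2 RPM in the B lineage against 0 to 0.399 RPM elsewhere, and Wasl, its relative that also drives the Arp2/3 complex, 5.39 to 29.1 RPM in the B lineage against 49.5 to 105 RPM elsewhere. Laptm5 and Laptm4b, lysosomal membrane proteins, had 393 to 1459.8 RPM in the B lineage against 0 to 36.0 RPM elsewhere and 1.44 to 10.5 RPM in the B lineage against 93.9 to 762 RPM elsewhere. Dock2 and Dock1 formed the fifth pair, but Dock2 spanned 2.44 to 334 RPM in the B lineage against 0 to 1.69 RPM elsewhere and Dock1 was not separated under quantile normalization. Rac1 overlapped with 133 to 221 RPM in the B lineage against 115 to 343 RPM elsewhere, beside Rac2 with 197 to 1145 RPM in the B lineage against 0.741 to 4.55 RPM elsewhere.

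**Figure D3:**
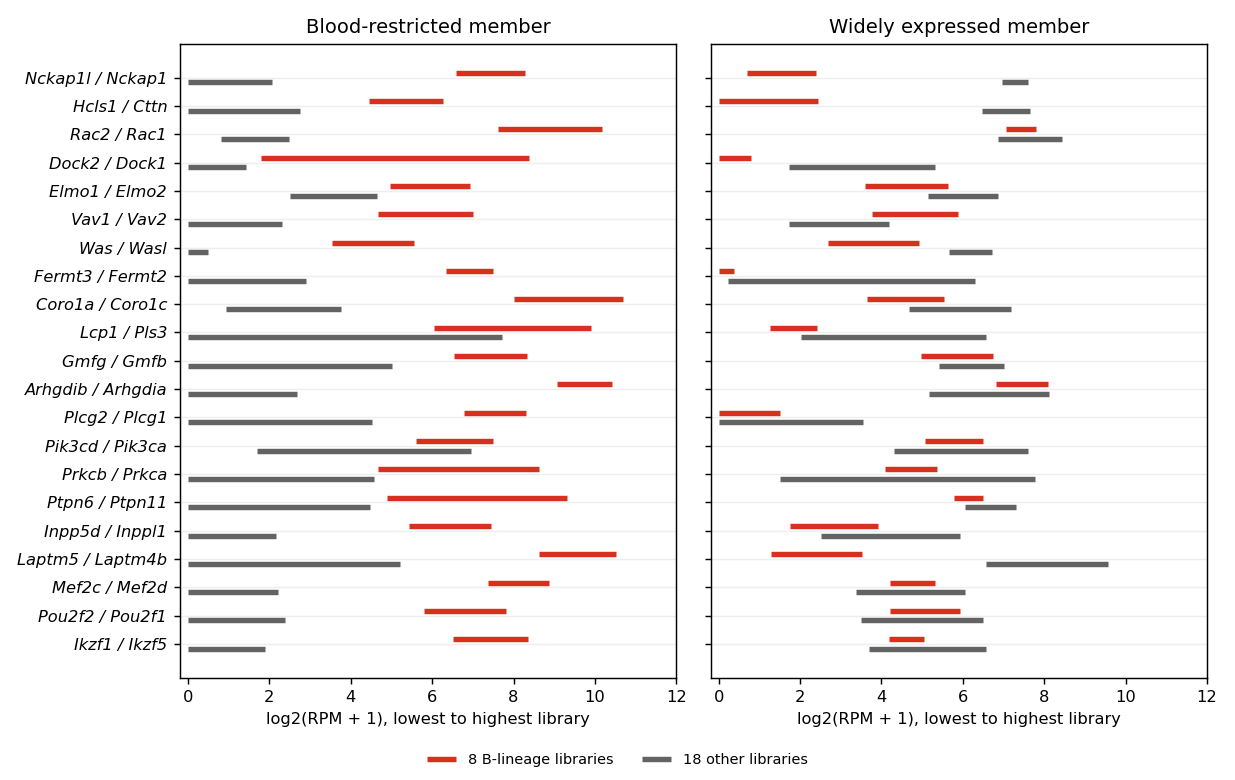
Lowest to highest library, as log2(RPM + 1), for the blood-restricted (left) and widely expressed (right) member of 21 pairs, with the 8 B-lineage libraries above the 18 others in each row. In the left panel the B-lineage range lies to the right in 19 rows, and in the right panel it lies clear to the left in 5.

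Receptors for microbial products and cytokines were shared in part. Of 10 Toll-like receptor genes, 7 were higher in every B-lineage library (median log2 difference 3.48). Tlr7, a sensor of single-stranded RNA (Entrez ID 170743; chromosome X, 167303380 to 167330574), had 61.5 and 53.2 RPM in the B cell libraries, 80.5 and 65.0 in Blast, 55.6 and 42.3 in prePB and 71.7 and 79.0 in PB, against 0 to 1.12 RPM with a median of 0 in the 18 other libraries. Cd180, an LPS-related receptor of B cells, had 8.90 to 36.2 RPM in the B lineage against 0 to 0.897 RPM elsewhere, and Tlr6, at the edge, 0.425 to 27.0 RPM in the B lineage against 0 to 0.187 RPM elsewhere. Tlr9 was at 0 in at least 1 B-lineage library, with 0 to 30.7 RPM in the B lineage against 0 to 0.385 RPM elsewhere. Of 19 cytokine and chemokine receptors, 12 were higher throughout (median 4.27). Il2rg, the common gamma chain (Entrez ID 16186; chromosome X, 101264385 to 101268255), had 250.5 and 209 RPM in the B cell libraries, 139.9 and 149 in Blast, 193 and 134 in prePB and 138 and 139.9 in PB, against 0 to 2.02 RPM with a median of 0.381 in the 18 other libraries. Tnfrsf13b, the receptor TACI for BAFF and APRIL (Entrez ID 57916; chromosome 11, 61126283 to 61153170), had 218 and 245 RPM in the B cell libraries, 233 and 313 in Blast, 222 and 238.3 in prePB and 229.7 and 281 in PB, against 0 to 3.96 RPM with a median of 0.441 in the 18 other libraries. All 4 groups overlapped for TACI in the deposited scaling. Il4ra, a subunit of the IL-4 receptor, overlapped with 15.5 to 377 RPM in the B lineage against 0.371 to 23.9 RPM elsewhere, where the lowest B-lineage library was PB replicate 2 and the highest other one E16.5 intestine replicate 1. Of 14 lymphocyte adaptors, 12 were higher throughout (median 5.38), and Sash3, an adaptor of lymphocytes, had 62.4 to 373 RPM in the B lineage (median 166), against 0 to 0.774 RPM elsewhere (median 0.210).

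Only 43 genes were seen in the B lineage alone, with at least 5 RPM in all 8 libraries and under 1 RPM in all 18 others. None of the 43 was at 0 in every other library. Cd69, an early activation antigen (Entrez ID 12515; chromosome 6, 129267324 to 129275375), had 46.1 and 57.3 RPM in the B cell libraries, 135 and 112 in Blast, 140.1 and 101 in prePB and 56.4 and 34.9 in PB, against 0 to 0.385 RPM with a median of 0 in the 18 other libraries. It was listed at 0 in 16 of the 18 other libraries. Nlrc5, a coactivator of MHC class I genes, had 30.5 to 63.1 RPM in the B lineage (median 41.6), against 0 to 0.562 RPM elsewhere (median 0). Arhgap15, Slamf7, S1pr4, Gpr174, Gpr65, Rnase6, Napsa, Tmem154, Mndal and Pyhin1 were in the same set. Serpina3g, Gimap8, Gm10552, Gm19763, A530032D15Rik and A630001G21Rik were too, but they belong to families or unnamed loci whose reads may be shared with close copies. Over all 509 genes, 16 were at 0 in every other library, each with under 5 RPM in at least 1 B-lineage library, and 119 were above 0 in all 18.

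**Figure D4:**
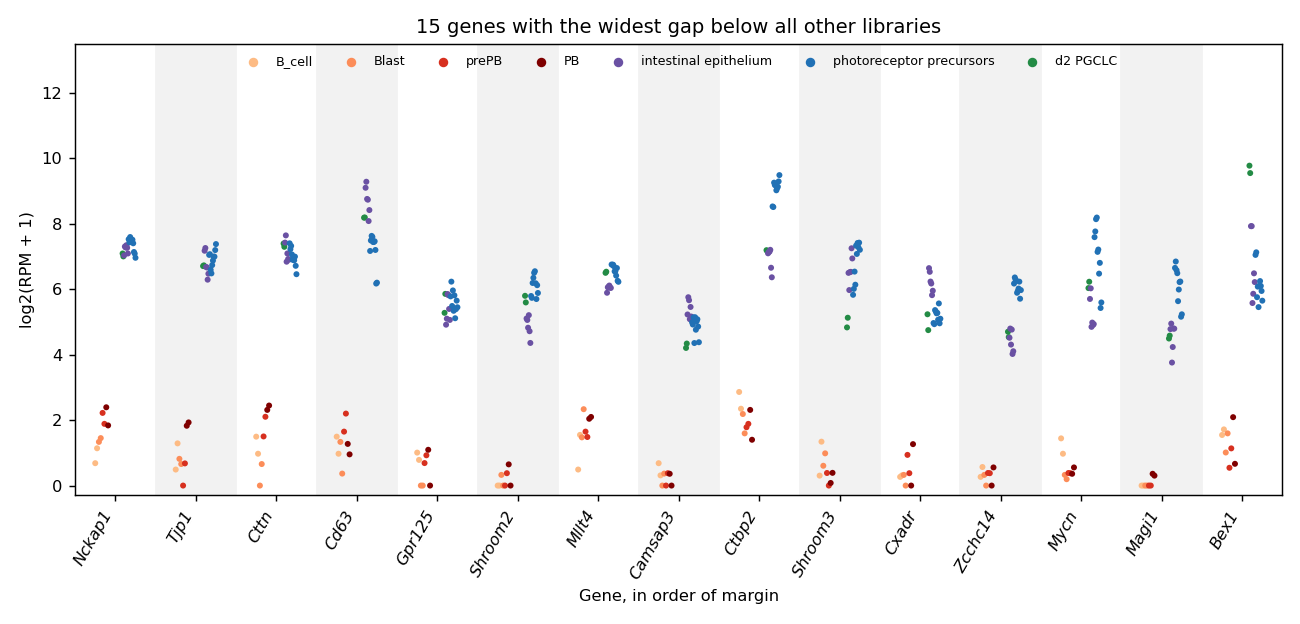
Level of the 15 lower genes with the widest margin, as log2(RPM + 1), one point per library, with the 8 B-lineage libraries left of the 18 others for each gene. The B-lineage points lie between 0 and 6.27 RPM, and every other point lies above them.

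Many genes of cell junctions and polarity were lower throughout the B lineage. Of 24 listed junction and polarity genes, 14 were lower in every B-lineage library, none was higher, and the median log2 difference was -3.16. The count was 13 under median-of-ratios scaling and 11 under quantile normalization. Tjp1, the tight junction scaffold ZO-1 (Entrez ID 21872; chromosome 7, 65296165 to 65527850), had 0.404 and 1.45 RPM in the B cell libraries, 0.761 and 0.578 in Blast, 0 and 0.5995 in prePB and 2.55 and 2.81 in PB, against 77.5 to 166 RPM with a median of 111 in the 18 other libraries. The highest B-lineage value was 2.81 RPM in PB replicate 2. Mllt4, afadin, which links nectins to actin, had 0.404 to 4.05 RPM in the B lineage (median 2.03), against 58.5 to 107 RPM elsewhere (median 87.1), and Pvrl3, nectin-3, 0 to 1.16 RPM in the B lineage (median 0.406), against 18.2 to 127 RPM elsewhere (median 69.2). Magi1, a junction scaffold (Entrez ID 14924; chromosome 6, 93675453 to 94283929), had 0 and 0 RPM in the B cell libraries, 0 and 0 in Blast, 0 and 0 in prePB and 0.284 and 0.234 in PB, against 12.6 to 114 RPM with a median of 35.7 in the 18 other libraries. It was listed at 0 in 6 of the 8 B-lineage libraries. Pard3, Pard6b, Dlg5, Llgl2, Ctnna1, Ctnnb1, Ctnnd1, Jup and Pvrl2 were also lower throughout. Scrib (36.9 to 97.8 RPM in the B lineage against 49.2 to 299.6 RPM elsewhere) and Llgl1 (5.67 to 33.2 RPM in the B lineage against 14.2 to 176 RPM elsewhere) overlapped.

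The other lower genes with the widest margins held further genes of epithelial shape beside genes of other roles. Shroom2 and Shroom3, which contract the apical actin of epithelia, had 0 to 0.567 RPM in the B lineage against 19.5 to 92.8 RPM elsewhere and 0 to 1.54 RPM in the B lineage against 27.5 to 171 RPM elsewhere. Camsap3, which anchors microtubule minus ends at junctions, had 0 to 0.606 RPM in the B lineage against 17.5 to 53.1 RPM elsewhere. Cd63, a tetraspanin of late endosomes and exosomes (Entrez ID 12512; chromosome 10, 128896231 to 128912822), had 1.82 and 0.963 RPM in the B cell libraries, 1.52 and 0.289 in Blast, 2.14 and 3.60 in prePB and 1.42 and 0.937 in PB, against 71.3 to 624 RPM with a median of 195 in the 18 other libraries. Ctbp2, a corepressor and part of synaptic ribbons, had 1.64 to 6.27 RPM in the B lineage (median 3.13), against 81.5 to 719 RPM elsewhere (median 367). Mycn, a proto-oncogene of progenitor cells, had 0.144 to 1.72 RPM in the B lineage (median 0.303), against 27.9 to 292 RPM elsewhere (median 69.4). Cxadr, Gpr125, Zcchc14 and Bex1 completed the 15.

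Receptors for growth factors and morphogens were lower in part. Of 29 receptors and related genes, 10 were lower throughout (median log2 difference -2.41), with 7 under median-of-ratios scaling and 3 under quantile normalization. Bmpr1a, a BMP receptor (Entrez ID 12166; chromosome 14, 34411061 to 34503336), had 2.02 and 3.13 RPM in the B cell libraries, 0.761 and 0.578 in Blast, 1.53 and 2.70 in prePB and 2.27 and 1.64 in PB, against 38.9 to 129.96 RPM with a median of 91.6 in the 18 other libraries. Smo, the transducer of Hedgehog signals, had 0 to 0.916 RPM in the B lineage against 4.95 to 115 RPM elsewhere, and Igf1r 0.916 to 4.56 RPM in the B lineage against 8.03 to 368 RPM elsewhere. Notch2, used by marginal zone B cells, overlapped with 2.84 to 65.5 RPM in the B lineage against 0.336 to 12.2 RPM elsewhere. Of 21 genes of the Hippo pathway and its targets, 6 were lower throughout (median -2.57), with 5 and 3 under the other scalings. They were Tead1 (0 to 0.606 RPM in the B lineage against 11.9 to 64.5 RPM elsewhere), Amotl2 (0 to 0.963 RPM in the B lineage against 5.25 to 272 RPM elsewhere), Tead3, Wwc1, Cyr61 and Yap1 (0 to 1.53 RPM in the B lineage against 2.60 to 159 RPM elsewhere). The upstream gene Nf2 narrowly overlapped, with 27.6 to 41.6 RPM in the B lineage against 39.4 to 113 RPM elsewhere. Of 36 cilium genes, 3 were lower throughout (median -1.64). They were 1700019E19Rik, listed as Ift43, with 0 to 2.27 RPM in the B lineage against 32.4 to 171 RPM elsewhere, and Bbs5 and Ift88. The count of lower cilium genes was 3 under median-of-ratios scaling (median -1.14) and 1 under quantile normalization (median -0.69). Under each of these 2 scalings, 1 cilium gene was higher throughout.

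Absence was rarely complete. Only 39 genes were under 1 RPM in all 8 B-lineage libraries and at least 5 RPM in all 18 others, and 413 of the 797 lower genes were above 0 in all 8. Plch1, a phospholipase C (Entrez ID 269437; chromosome 3, 63696199 to 63899503), was the one gene of the 39 at 0 in all 8, with 9.27 to 58.4 RPM elsewhere and a median of 20.9. Gab1, a docking protein for growth factor receptors, had 0 and 0 RPM in B cell, 0.761 and 0.289 in Blast, 0 and 0.300 in prePB and 0.284 and 0.469 in PB, against 12.04 to 105 RPM elsewhere. Id1, an inhibitor of E proteins, had 0 to 0.567 RPM in the B lineage (median 0.294), against 9.76 to 450.3 RPM elsewhere (median 60.4). Neo1, Plxna2, Kank1, Ddah1, Auts2 and Dlg5 were in the same set.

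As a description of the contrast that chose the genes, the limma comparison of the B-lineage mean with the 9 other groups called 10.4% of the 14131 tested genes higher and 40.5% lower, at an adjusted p under 0.05 and a log2 difference of at least 1. Higher genes were 20.4% of those calls in the deposited scaling, 35.9% under median-of-ratios scaling and 44.6% under quantile normalization, and the median over all genes moved to -0.24 and -0.05 from -0.74. In the 8 leukocyte lists, the genes called higher were 26 of 28 antigen receptor genes, 20 of 22 transcription factors and all tested members of the MHC class II, cytoskeleton, surface, Toll-like receptor and adaptor lists, with 18 of 19 cytokine and chemokine receptors. Called lower were all 24 junction genes, 28 of 36 cilium genes, 26 of 28 tested growth factor receptors and 14 of 18 tested Hippo genes, while 2 cilium genes and 1 growth factor receptor were called higher.

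Being above all other cells did not mean being level across the stages. Among the 4 B-lineage groups, 392 of the 492 tested higher genes (79.7%) differed, by limma's moderated F-test with Benjamini-Hochberg adjustment over all genes at an adjusted p under 0.05 and a range of group means of at least 1 on the log2 scale. Over all 9871 genes tested the share was 67.5%. The median range was 1.96 for the higher genes and 1.36 for all genes. In the deposited scaling, group means peaked in B cell for 298 of the 492 genes, and were lowest in PB for 269. The order of the groups was not counted over all genes or under other scalings. It depends on scaling, since the median-of-ratios factors that divide the values were 0.564 and 0.554 in PB against 0.939 and 0.938 in B cell. Under that scaling, 377 higher genes were called different among the 4 groups, and the share over all genes was not counted there. A range under 1 was found for 97 of the higher genes, and 55 of these still had an adjusted p under 0.05. The median range of the 322 lower genes with enough signal was 0.99, and 144 (44.7%) were called. Another 17 higher and 475 lower genes were too low to be tested. The rule puts a floor under the B-lineage values of higher genes and a cap on those of lower genes. The ranges and shares of members and of all genes are therefore given side by side only.

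Of the 25 higher genes with the widest margin, 17 were called and 8 had a range of group means under 1 on the log2 scale. That is close to the share over all 9871 genes tested, of which 67.5% were called. In the deposited scaling, Tnfrsf13b ranged by 0.23 on the log2 scale (adjusted p = 0.53), Cd48 by 0.44 (adjusted p = 0.19), Cd52 by 0.63 (adjusted p = 0.026), Ptprcap by 0.69 (adjusted p = 0.0068) and Il2rg by 0.72 (adjusted p = 0.0087). A gene level in this scaling need not be level under median-of-ratios scaling, which raises PB against the other B-lineage groups. Cd48, a ligand of SLAM-family receptors, had 251 and 268 RPM in the B cell libraries, 256 and 369.6 in Blast, 282 and 339 in prePB and 183 and 284 in PB, against 0 to 2.81 RPM with a median of 0.417 in the 18 other libraries. Fli1, an ETS factor, ranged by 0.41 (adjusted p = 0.20). At the other end, among higher genes averaging at least 50 RPM, Cd22 ranged by 7.21 (adjusted p = 1.0e-08), Ms4a4c by 7.01 (adjusted p = 5.6e-10) and Ciita, the class II coactivator, by 5.97 (adjusted p = 3.0e-09).

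Some of the higher genes lay in runs along the chromosomes. Of 496 with a RefSeq position (97.4% of the 509), 117 stood in 22 runs of at least 3 members with gaps of at most 200 kb, against 55 of 795 lower genes in 15 runs. The share in runs was not counted for sets drawn from all 24062 genes with a position, so these counts are a description only. The largest run held 14 genes at chromosome 17, 33919478 to 34341410, from Tapbp to H2-Eb2, and took in 9 of the 11 listed class II genes with Psmb8, Psmb9 and Tap1, which make and carry peptides for class I. Gimap8, Gimap9, Gimap4, Gimap6, Gimap7, Gimap1, Gimap5 and Gimap3 formed a run of 8 at chromosome 6, 48647186 to 48770851. Runs of 10 at chromosome 1, 173521311 to 174031755 (Ifi203, Ifi204, Ifi205, Mndal and others) and at chromosome 1, 85088139 to 85736656 (Sp100, Sp110, Sp140 and unnamed loci) belong to families with close copies, so that values of single members are uncertain. Arhgap30, Ly9, Slamf7, Cd48, Cd84 and Slamf6 stood together at chromosome 1, 171388960 to 171948958. The lower genes covered longer stretches of genome, with a median span of 33.8 kb against 22.5 kb for all tested genes and 19.9 kb for the higher genes.

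Promoters in the RefSeq table (GRCm38.p6; 250 bases before to 50 bases after each start) matched 362 of the 509 higher genes (71.1%) and 623 of the 797 lower genes (78.2%). With under 80% matched, a comparison over the whole sets is void, and the values describe the matched promoters only. The ETS letters AGGAAGT stood on either strand in 114 of 487 matched promoters of higher genes (23.4%), in 57 of 867 of lower genes (6.57%) and in 9.35% of all 32851 promoters. The EBF1 letters TCCCNNGGG, on either strand, where matches of the strands can overlap, stood in 10.3, 8.65 and 6.56%, the octamer ATGCAAAT in 2.26, 1.04 and 1.74%, and the E-box CAGGTG in 20.7, 21.0 and 20.2%. The observed-to-expected CpG ratio had a median per gene of 0.353 in the matched promoters of higher genes, 0.731 in those of lower genes and 0.56 over the genes of all rows used. A match is a run of letters, not a shown binding site. Promoters of Cd79a (chr7:24897247-24897546, plus strand), Was (chrX:8090442-8090741, minus strand), Wasl (chr6:24664946-24665245, minus strand) and Tjp1 (chr7:65371195-65371494, minus strand) show 2 higher genes and then 2 lower ones, with an actin regulator of each kind, with capitals for letters that matched any of the 4 motifs:
Cd79a: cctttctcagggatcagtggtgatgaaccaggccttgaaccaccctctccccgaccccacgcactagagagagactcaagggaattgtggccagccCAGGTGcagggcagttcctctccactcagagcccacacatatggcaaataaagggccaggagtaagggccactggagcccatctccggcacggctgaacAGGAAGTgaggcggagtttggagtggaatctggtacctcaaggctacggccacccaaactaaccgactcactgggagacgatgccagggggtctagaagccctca
Was: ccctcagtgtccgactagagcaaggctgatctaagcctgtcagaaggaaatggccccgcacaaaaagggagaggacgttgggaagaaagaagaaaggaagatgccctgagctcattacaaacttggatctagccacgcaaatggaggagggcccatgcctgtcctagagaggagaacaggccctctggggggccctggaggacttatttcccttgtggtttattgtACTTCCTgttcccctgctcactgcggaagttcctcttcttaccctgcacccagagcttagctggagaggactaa
Wasl: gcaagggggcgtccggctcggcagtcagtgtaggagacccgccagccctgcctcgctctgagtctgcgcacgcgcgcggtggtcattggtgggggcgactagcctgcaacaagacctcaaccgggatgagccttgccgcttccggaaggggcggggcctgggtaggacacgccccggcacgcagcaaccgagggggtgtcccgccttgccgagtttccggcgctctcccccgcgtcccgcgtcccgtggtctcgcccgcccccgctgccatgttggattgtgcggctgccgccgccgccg
Tjp1: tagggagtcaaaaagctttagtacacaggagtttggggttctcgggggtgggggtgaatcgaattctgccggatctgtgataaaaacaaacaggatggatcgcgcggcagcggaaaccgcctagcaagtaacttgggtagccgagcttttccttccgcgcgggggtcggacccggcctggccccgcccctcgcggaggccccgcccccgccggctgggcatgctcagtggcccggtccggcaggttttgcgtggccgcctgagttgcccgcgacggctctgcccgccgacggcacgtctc
Cd79a holds CAGGTG from base -154 and AGGAAGT from base -55, counted from the start site. Was holds the reverse complement of AGGAAGT from base -24. Wasl and Tjp1 hold none of the 4. The CpG ratio was 0.314 for Cd79a and 0.235 for Was, and 0.918 for Wasl and 0.972 for Tjp1. These 4 promoters are examples and do not stand for their sets. The higher genes Pou2af1, H2-Aa and Cd48 held none of the 4 motifs, while the lower genes Magi1, Gpr125 and Shroom3 held matches. The CpG ratio was 0.7875 for the higher gene Plcg2, and 0.334 and 0.286 for the lower genes Cd63 and Bex1.

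Traces of these B-lineage transcripts appeared in all 18 other libraries, with 8 to 25 of the 25 widest-margin genes above 0 in each. Of the 509 higher genes, 493 were above 0 in at least 1 of the 18. That count includes genes well expressed in other cells, such as Rps24, Mcl1 and B2m, so it is not a count of traces. The 25 genes with the widest margin summed to 0.0436 to 0.412% of their B-lineage mean. The sum was 94.6 RPM in E16.5 intestine replicate 1, against 41.1 in its replicate 2, and 76.8 RPM in P10 retina replicate 2, against 45.8 in its replicate 1. In d2 PGCLC it was 16.3 and 10.0 RPM, with 8 and 9 of the 25 genes above 0. E16.5 intestine replicate 1 held the highest other value for 11 of the 25 genes and for 58 of the 509. Over the 509, the next counts were 53 and 49 in d2 PGCLC replicates 2 and 1, and 49 in P4 CD73-negative retina replicate 2.

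The library with the highest other value differed from gene to gene, as a few genes chosen after their values were seen show. Cd79a was 5.39 RPM in E16.5 intestine replicate 1 and 7.07 RPM in P10 retina replicate 2, Pou2af1 was 5.39 and 4.37, and Ms4a1, which encodes CD20, 2.69 and 2.02. Their replicates held 0.618 and 2.60 RPM of Cd79a, so the traces differed within a group. In these same 2 libraries the median gene of the 25 stood at 0.407 and 0.357% of its B-lineage mean, with quartiles of 0.184 to 0.481% and 0.241 to 0.454%. Cd53, at 11.2 RPM, and Ptprc, at 3.19 RPM, were instead highest in P4 CD73-negative retina replicate 2, where Cd79a was 0.75 RPM. That library had the largest myeloid marker sum outside the B lineage, at 334 RPM against 5.83 to 164 RPM in the other 17, and the part of those cells in the values was not tested. H2-Ab1, at 24.7 RPM, and Tnfrsf13b, at 3.96 RPM, were highest in P0 retina replicate 2, where the myeloid sum was 164 RPM, and H2-Aa, at 9.62 RPM, in E16.5 intestine replicate 1.

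**Figure D5:**
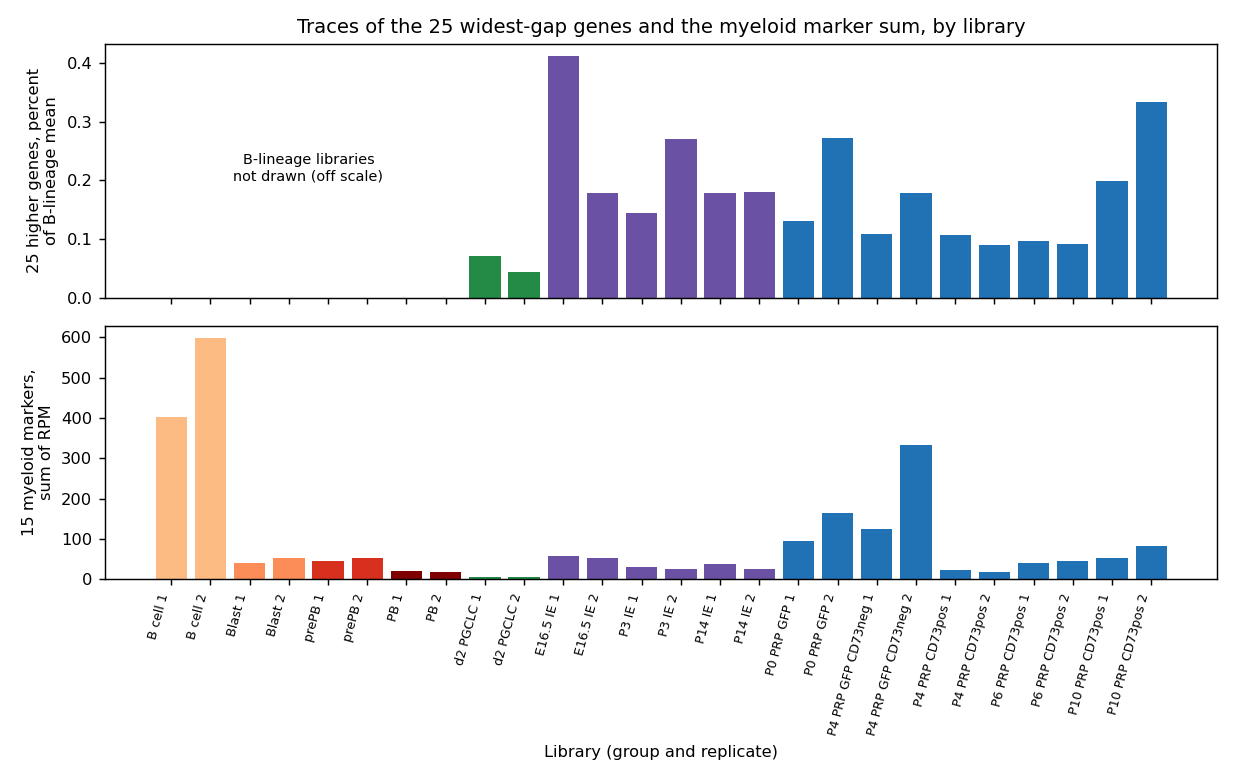
Upper panel, summed level of the 25 widest-margin genes in each of the 18 other libraries as a percent of their B-lineage mean; lower panel, sum of 15 myeloid markers in RPM in all 26 libraries. The highest trace is 0.412% in E16.5 intestine replicate 1, and the highest myeloid sum outside the B lineage is 334 RPM in P4 CD73-negative retina replicate 2.

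Each other group was also tested against the mean of the remaining 8 non-B groups with limma, and a member was called at an adjusted p under 0.05 and a log2 difference of at least 1. The rule caps these values below the lowest B-lineage library, so the shares of members are not read against all genes. A member could also pass the filter of 5 RPM in 2 libraries through its B-lineage values alone, so a call elsewhere can rest on a few reads. The calls are therefore given as a description of where traces lay and not as support for them. Called higher were 78 of the 492 tested members in d2 PGCLC (background 15.7%), 59 in E16.5 (15.5%), 63 in P3 (15.8%) and 72 in P14 intestine (15.6%). In retina they were 37 at P0 (17.9%), 34 in the P4 CD73-negative sort (19.3%), 14 in the P4 CD73-positive sort (19.1%), 14 at P6 (20.2%) and 25 at P10 (20%). Members called in E16.5 intestine included Cd52, Cd74, Pou2af1, H2-Aa and H2-Eb1, and those called at P10 included Cd52, Cd79a, Pax5 and Tnfrsf13c. In the P4 CD73-negative sort they included Ptprc, Cd53, Laptm5, Fcgr2b, Irf5 and Sfpi1, and in d2 PGCLC Cd79b, Gmfg, Plcg2 and Ptpn6. B2m and H2-K1, which form MHC class I on most cells, had their highest other values in intestine, with 4524 to 10453 RPM in the B lineage against 14.3 to 1349 RPM elsewhere and 2031 to 4278 RPM in the B lineage against 8.45 to 566 RPM elsewhere.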

How the data were processed

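The 26 libraries of 3' RNA-seq, amplified from 1 ng of RNA per the labels, were used as an expression signal in RPM that the authors deposited in 1 table. Per the submitters' processing notes, the build was mm10 and the tools included Bowtie 1.0.1 and TopHat 1.4.1, Cufflinks 2.2.0, and cutadapt 1.11; the handling of shared reads is not stated. Of values from 1 read to 20.5 reads, 82.9 to 91.3% per library lay within 0.02 of a whole number, so the signal was not treated as counts.

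Of 26310 rows, 1164 had values moved against the header (tested by whole reads after each possible move) and were left out, among them 1072 gene rows (4.09% of gene rows) that hold many immunoglobulin genes. No column was left unmapped. Levels were log2(RPM + 1), unscaled. Genes were separated by the lowest and highest values of the 8 and the 18 libraries. Fits used limma 3.58.1 (trend) in R 4.3.3 on genes reaching 5 RPM in 2 or more libraries of the fit (14131 genes over 26 libraries, 9871 over the 8), with two-sided p-values adjusted by Benjamini-Hochberg over all genes; the fits were tested on simulated data first. Tables and figures used Python 3.11.15, NumPy 2.4.6, pandas 2.3.3 and matplotlib 3.10.9. Positions and promoters came from RefSeq (GRCm38.p6).

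Named genes were Cd79a and Ptprc; the 25 higher and 15 lower genes with the widest margin; up to 20 genes seen or absent only here; 3 genes on each side of a margin of 0; per list, up to 6 separated and 4 overlapping members; and 8 members highest elsewhere. Some named genes are not reported here. Genes outside that rule were chosen after their values were seen. The members, 12 gene lists and 9 marker lists were chosen with earlier results of these data known, and the 21 gene pairs after seeing values. Other scalings, pseudocounts, filters, group weights, left-out libraries and the replicate block were tried.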

Additional observations from a re-analysis of the deposited data

How the results depend on the processing

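The higher set counted 388 to 821 genes under the settings tried and the lower set 361 to 1288. Quantile normalization gave 821 higher and 361 lower genes, and a limit of 5 RPM on the lowest other value gave 512 lower genes. Leaving out both B cell libraries gave 1288 lower genes. Leaving libraries out can only keep or raise that count, and the cause of the size of the rise was not tested. A limit of 0 in every library on the absent side left 0 of the genes seen only here and 1 of those absent only here. In the comparison of means, calls were 2290 higher under median-of-ratios scaling, 2733 higher and 3397 lower under quantile normalization, and 3737 lower with log2(RPM + 5), against 1464 higher and 5724 lower. Without single libraries, counts were 509 to 545 (higher), 799 to 893 (lower), 43 to 48 (seen only) and 39 to 47 (absent only). By the rule these counts can only stay or rise when a library is left out, so they are no check of the sets. Calls of means were 1390 to 1483 higher and 5669 to 5777 lower. Members differing between B-lineage groups were 369 to 398. Members called in at least 1 other group were 209 to 235, with 219 for all libraries. The matching shares over all genes were not counted for these calls of members. Differences between same-numbered replicates correlated at 0.0117 to 0.196 between the 4 B-lineage groups, so the numbers are not taken to pair samples; the replicate block gave 1464, 5724, 392 and 219, the counts without it, though over all 9871 genes 95 calls between the B-lineage groups differed (6745 with it, 6658 without). Of 1052 refits of 263 named genes under other scalings and pseudocounts, none changed sign among called genes, and 691 moved the log2 difference by more than the spread between replicates.

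With 2 libraries per group, fractions of reads and levels of a few reads, values under 1 RPM limit what absence means here. Immunoglobulin genes in moved rows were not analysed here.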

Other observations

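Several genes outside the lists were also higher in every B-lineage library. Mcl1, a survival factor, had 369 to 919 RPM in the B lineage against 126 to 239 RPM elsewhere. Rps24, a ribosomal protein gene, had 4799 to 8046 RPM in the B lineage against 1079 to 4229 RPM elsewhere, and Serp1, which guards proteins at the endoplasmic reticulum membrane, had 762 to 2019 RPM in the B lineage against 67.3 to 398 RPM elsewhere. These were chosen because they were the members with the highest levels in another library. Beside 509 higher and 797 lower genes in the 8 B-lineage libraries, the same separation rule gave 1264 and 211 in the 6 intestinal libraries, 2546 and 285 in the 10 retinal libraries and 1647 and 350 in the 2 d2 PGCLC libraries; the numbers of libraries and groups differ, so the counts are given side by side only.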
